A study of Mus musculus with 4 samples.

Results

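Arachidonate is the fatty acid from which prostaglandins and leukotrienes are made, and the 10 genes described here encode enzymes and receptors of that route: Pla2g4a, Pla2g4e, Ptgs1, Ptgs2, Ptges, Ptges3, Ptgds, Ptger3, Ptger4 and Alox5. They were taken as a list of gene names, with no threshold on a measured value, and all 10 were among the 20211 gene symbols present in all 4 libraries. Nuclear RNA of the mouse hippocampus was counted in 1 library for each of 4 genotypes. The labels name them wild type (WT), total or global MAGL knockout (tKO), astrocyte-specific MAGL knockout (aKO) and neuron-specific MAGL knockout (nKO). No Cre driver, strain, age, treatment or number of animals per library was given in the sources used here.

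MAGL, encoded by Mgll, splits the endocannabinoid 2-arachidonoylglycerol into arachidonate and glycerol, and in the brain this is a source of arachidonate for prostaglandin synthesis. Cytosolic phospholipases A2 release arachidonate from membrane lipids by another path. Cyclooxygenases (COX-1 and COX-2, encoded by Ptgs1 and Ptgs2) turn it into prostaglandin H2, from which terminal synthases make prostaglandin E2 or D2, while 5-lipoxygenase leads to the leukotrienes. COX-2 is known in the forebrain as an immediate early gene of excitatory neurons, induced by synaptic activity, and COX-1 as the form found in microglia.

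With 1 library per genotype, no difference below has a replicate check. Each interval is an exact 95% interval that covers counting error only, and the 3 knockout libraries were each compared with the same WT library. The libraries held 8945 to 31243 barcodes and 81623644 to 193307038 unique molecular identifiers (UMIs, counts of single RNA molecules), and 51304 nuclei were kept after filtering. The tKO-labelled library stood apart: 23.1% of its barcodes were called doublets against 2.11% to 5.95% in the others, and 0.0127% of its kept nuclei were female by Xist and Y-linked UMIs against 41.0% to 47.1%. The expected doublet rate given to the caller rose with the number of barcodes, and tKO had the most (31243), so the doublet contrast is partly set by that input. Any 2 libraries shared 108 to 466 barcode sequences. Mgll, the targeted gene, was found in every library. Levels are in CPM (UMIs of the gene relative to all UMIs of the class, on the usual CPM scale). In excitatory neurons Mgll was at 102 CPM in WT, 80.9 in tKO, 104 in aKO and 106 in nKO. There tKO was lowest and nKO was not below WT. In inhibitory neurons the levels were 120, 118, 136 and 123 CPM in the same order, with tKO close to WT. In astrocytes, of which only 18 to 79 nuclei per library were found, Mgll was at 438, 369, 248 and 470 CPM. The aKO value, the lowest, rests on 10 UMIs. Which exons were deleted was not given, so the libraries are named here as labelled.

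Nuclei were sorted into 23 classes by lists of marker genes that hold none of the 10 members, and a class name means resemblance on those markers. Neurons with excitatory or inhibitory markers but no subclass make up the other excitatory and the remaining inhibitory neurons, which are among the 23. Immature dentate neurons (257 nuclei) and ependymal cells (3 nuclei) were left out of the 23, and mixed and ungated nuclei are no class. Class make-up differed between WT, tKO, aKO and nKO, which kept 8941, 23702, 10015 and 8646 nuclei. In that order, medium spiny neurons numbered 32, 653, 10 and 8, and thalamic neurons 20, 191, 26 and 5. Oligodendrocytes numbered 355, 1359, 42 and 64. The part of class make-up in the differences between libraries was not tested. A level is the CPM of a gene in the summed UMIs of a class in a library. A member was read in a class with at least 20 UMIs over the 4 libraries. By that limit Ptges3 and Ptgds were read in 20 classes each, Pla2g4e in 15, Ptger4 in 10, Pla2g4a in 9, Ptgs1, Ptges and Ptger3 in 7 each, Ptgs2 in 5 and Alox5 in 1, and in the rest of the 23 they were too low to read. Outside the 23, immature dentate neurons also passed that limit for Ptges3 (94 UMIs) and Pla2g4e (48 UMIs). The classes were ranges on marker scores: 13.5% of CA1 nuclei, 7.91% of CA2/CA3 nuclei, 2.27% of dentate granule nuclei and 21.1% of subicular or cortical nuclei lay within 1.2-fold of a limit.

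**Figure D1:**
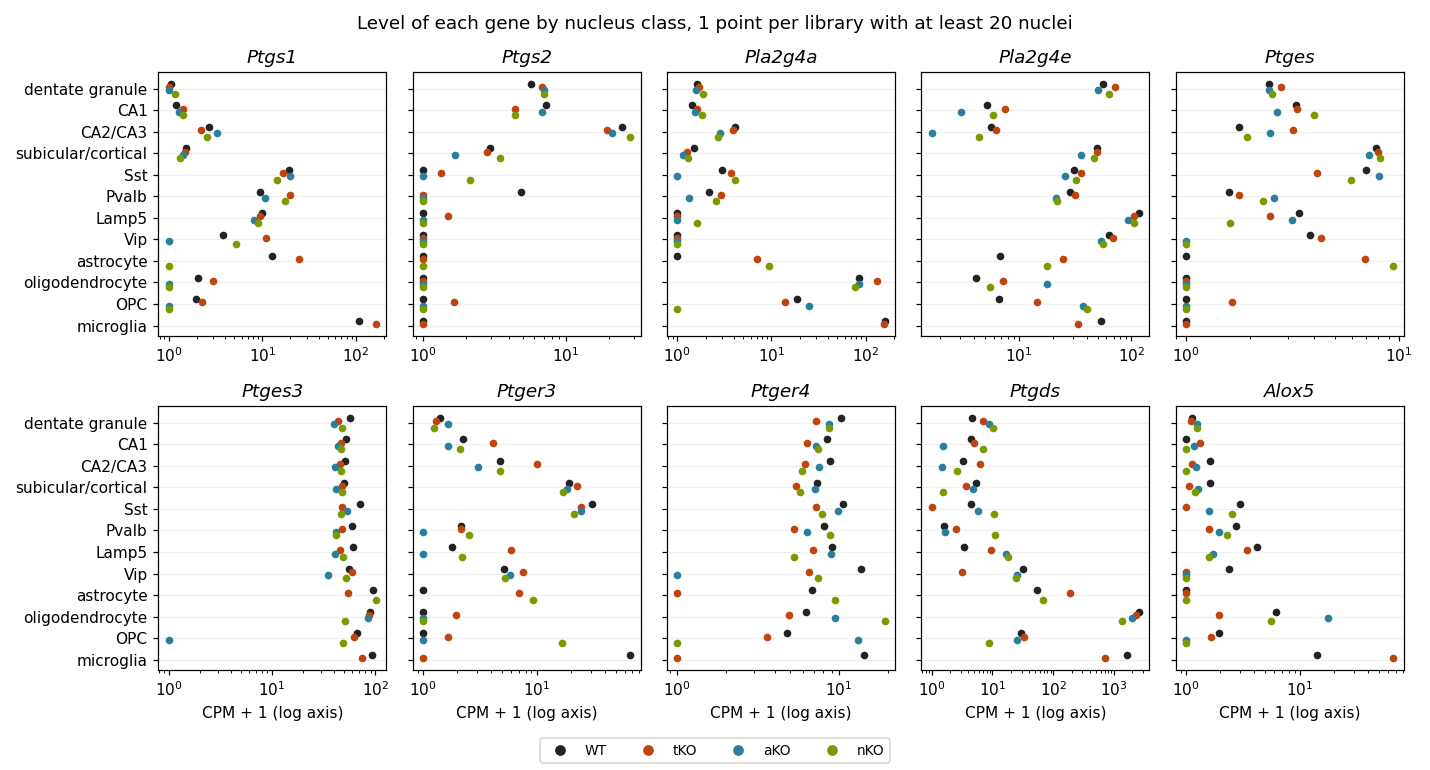
Level of each of the 10 genes (CPM + 1, log axis) in 12 nucleus classes, with 1 point for each library that had at least 20 nuclei of the class; OPC stands for oligodendrocyte precursors. Ptgs2 is highest in CA2/CA3 neurons, Pla2g4e in Lamp5 interneurons, Pla2g4a and Ptgs1 in microglia, and Ptgds in oligodendrocytes, while Ptges3 lies at a similar level in all neuron classes.

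The cyclooxygenase genes had their highest levels in different classes, although CA2/CA3 and other excitatory neurons were read for both, and the sequences at their starts are shown because the pair differs there too. The stretches run from 120 bases before to 30 bases after the RefSeq start (GRCm38.p6, plus strand, chr1:150099911-150100060 for Ptgs2 and chr2:36230306-36230455 for Ptgs1). Capitals mark the core of the cAMP response element, TGACG (read here on the opposite strand as CGTCA), overlapping the E-box CACGTG.
Ptgs2: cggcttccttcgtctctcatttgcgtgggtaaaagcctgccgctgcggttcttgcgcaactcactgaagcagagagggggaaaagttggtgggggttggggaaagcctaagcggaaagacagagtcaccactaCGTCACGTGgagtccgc
Ptgs1: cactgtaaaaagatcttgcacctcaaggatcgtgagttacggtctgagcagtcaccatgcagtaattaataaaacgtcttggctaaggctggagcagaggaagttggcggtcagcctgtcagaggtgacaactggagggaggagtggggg

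Both strands of each window of 300 bases, from 250 before to 50 after a start, were searched for the TATA box with the letters TATAAA, the response element core TGACG described above, the E-box CACGTG, and the box named for its letters CCAAT. All 10 members had a window, 11 windows in all. In Ptgs2 the TGACG match began at base 14 and the E-box at base 17 after the start, sharing 2 letters, and the Ptgs1 window held none of the 4 motifs. Of 32841 windows of the same length, 20.8% held TGACG, 7.15% held CACGTG and 0.451% (148 windows) held the overlapping form CGTCACGTG. Among the other members only Ptges3 held TGACG, from base 12 after its start. Of 14 listed immediate early genes 10 had a window, and 8 of those held TGACG. A match describes the letters in a window, not binding.

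Ptgs2 (chr1:150100031-150108227, plus strand) was a gene of pyramidal and granule neurons. In CA2/CA3 pyramidal neurons it stood at 23.5 CPM in WT, 18.4 in tKO, 19.9 in aKO and 27.2 in nKO, a mean of 22.3 ± 3.92 (SD over the 4 libraries). In dentate granule neurons it was 4.71, 5.82, 5.99 and 6.05 CPM in the same order of libraries. In CA1 pyramidal neurons it was 6.25, 3.37, 5.85 and 3.42 CPM. The lowest CA2/CA3 library thus lay above the highest library of every other class read, while the ranges of dentate granule, CA1 and other excitatory neurons overlapped.

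Subicular or cortical excitatory neurons held Ptgs2 at 1.95, 1.80, 0.682 and 2.46 CPM. Inhibitory neurons held 22 UMIs in 7213 nuclei, and 11 of the 13 UMIs found in WT Pvalb interneurons came from 1 nucleus. No UMI was found in 1820 oligodendrocyte, 197 astrocyte or 120 microglial nuclei, where the limit of 3 counts per library was 1.45 to 25.3, 17.5 to 74.4 and 24.5 to 87.1 CPM. By nuclei, 1.97% of CA2/CA3 nuclei (1.45% to 2.61%) held a Ptgs2 UMI after thinning to 1000 UMIs, which leaves out shallower nuclei (1048 of 51304 in all, and 388 of 1820 oligodendrocytes), against 0.556% in the dentate gyrus and 0.405% in CA1. Without thinning the CA2/CA3 share was 19.2% at a median of 11932.5 UMIs per nucleus. Oligodendrocytes, the class expected to lack the gene, had 0 of 1432 thinned nuclei, which allows up to 0.209%, at a median of 1343.5 UMIs.

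**Figure D2:**
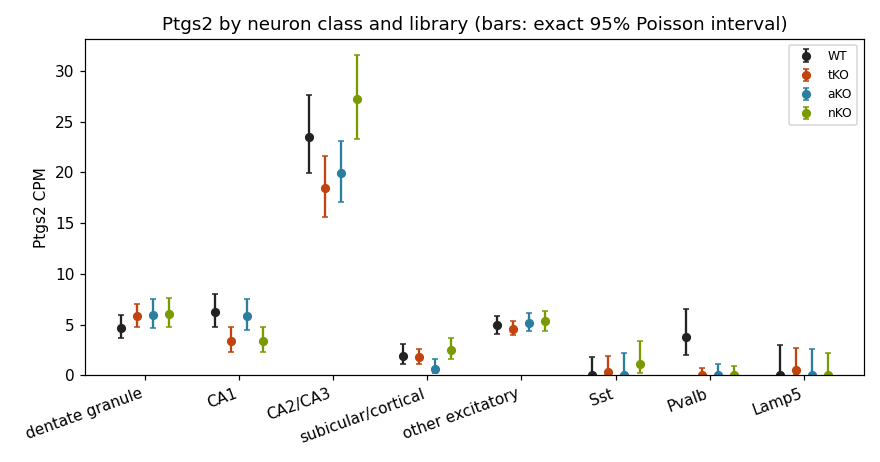
Ptgs2 CPM in 8 neuron classes, 1 point per library with its exact 95% Poisson interval. CA2/CA3 neurons lie between 18.4 and 27.2 CPM in the 4 libraries, above all other classes, and in CA1 neurons the tKO and nKO libraries (3.37 and 3.42) lie below WT and aKO (6.25 and 5.85).

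The transcript Ptgs2os, which begins 67 bases before Ptgs2 on the other strand and runs away from it, followed Ptgs2 closely. Over 20 classes it was the gene with the most similar profile to Ptgs2 of 18221 searched (Pearson r = 0.956 on log2(CPM + 1)), followed by Gm14285 (0.932) and Gm45346 (0.929). These points share libraries and depth. Ptgs2os stood at 10.6, 9.52, 9.39 and 10.1 CPM in CA2/CA3 neurons, but at 8.10, 7.72, 10.3 and 7.25 in dentate granule neurons, so the CA2/CA3 excess of Ptgs2 was not matched by its neighbour. Pla2g4a, the next coding member along the chromosome, lies 138740 bases away and followed another pattern, described below. Whether the counting used strand was not given.

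Nuclei that held a Ptgs2 UMI also carried more RNA of other activity-induced genes. For a list of 14 immediate early genes (Fos, Fosb, Junb, Arc, Egr1, Egr2, Egr4, Npas4, Nr4a1, Nr4a3, Nptx2, Inhba, Fosl2 and Ier2), summed levels in thinned excitatory nuclei with a Ptgs2 UMI were 2.62-fold those without in WT (1.74 to 3.80), 2.34-fold in tKO (1.70 to 3.14) and 2.60-fold in nKO (1.75 to 3.72). In aKO the ratio was 0.962 (0.439 to 1.83), resting on 9 UMIs of the list in 50 nuclei. These ratios used a separate random draw of the thinning from the shares above, in which 48 aKO excitatory nuclei held a Ptgs2 UMI. In all, 3 libraries had intervals above 1 and aKO did not; this difference between libraries was not tested.

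Without thinning the same ratios over excitatory neurons were 1.58, 1.496, 1.43 and 1.25, smaller in WT, tKO and nKO and larger in aKO. Part of such a ratio can come from the mix of classes, so CA2/CA3 neurons were also read alone. There, without thinning, the fold was 2.11 in WT (1.89 to 2.35), 1.86 in tKO (1.66 to 2.07), 1.61 in aKO (1.44 to 1.78) and 1.80 in nKO (1.64 to 1.98). All 4 libraries were above 1 in this class, including aKO. Nuclei with a Ptgs2 UMI were deeper, with a median of 17714 against 16131 UMIs in WT, and after thinning the class held only 2, 9, 2 and 13 UMIs of the list in nuclei with Ptgs2. Dentate granule neurons gave 1.68, 1.56, 1.80 and 1.02 without thinning and CA1 neurons 1.76, 1.69, 1.09 and 1.16, with intervals that reached below 1 for nKO in both classes and for aKO in CA1.

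Across classes the order of the list and of Ptgs2 differed in part. Immediate early genes summed to 347, 302, 256 and 405 CPM in CA1 neurons and 208, 206, 186 and 291 CPM in CA2/CA3 neurons, so of these 2 classes Ptgs2 was higher in the one with the lower total. Dentate granule neurons had the lowest totals of these 3 classes, at 65.3, 64.3, 71.0 and 68.8 CPM, yet more Ptgs2 than CA1 neurons in 3 of 4 libraries. Single genes made up much of some totals. In WT, Inhba was at 31.6 CPM in dentate granule neurons and Nr4a3 at 83.0 CPM in CA2/CA3 neurons. The totals are therefore no even measure of the list. In CA1, nKO had the highest total of the list and 1 of the 2 lowest Ptgs2 levels.

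In CA1 neurons Ptgs2 was lower than WT in the tKO-labelled library (log2 ratio -0.89, -1.56 to -0.25) and in the nKO-labelled library (-0.87, -1.53 to -0.24), from 60 UMIs in WT, 32 in tKO and 33 in nKO. The aKO-labelled library, with 63 UMIs, did not differ from WT beyond counting error (-0.10, -0.63 to 0.44). A gene is called higher or lower here where it had at least 100 UMIs in the class, differed at least 1.5-fold and had an interval that left out equality. Below, a call is said to hold under an alternative where the fold and the interval still pass, whatever the number of UMIs. Both calls were lost among male nuclei alone, where the tKO value was -0.77 (-1.56 to 0.04) and the nKO value -0.52 (-1.42 to 0.37). With a stricter gate Ptgs2 was at -1.16 and -1.02, past the fold and interval limits but with under 100 UMIs, so it left the count of members called. By construction, no call with a log2 ratio between -1 and 1 passes a fold of 2. In CA2/CA3 neurons, where Ptgs2 was best counted, the log2 ratios were -0.35, -0.24 and 0.21 in tKO, aKO and nKO, none of them called.

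Ptgs1 (chr2:36230426-36252272, plus strand) was highest in microglia, at 106 CPM in WT and 163 in tKO, the libraries with at least 20 microglial nuclei, and from 35 UMIs in all. Interneurons came next. Sst interneurons held 18.1, 15.5, 18.8 and 13.4 CPM, Lamp5 interneurons 8.85, 8.38, 7.15 and 7.89, and the remaining inhibitory neurons 9.45, 7.24, 7.01 and 9.43. Excitatory neurons together held only 0.559, 0.472, 0.692 and 0.739 CPM, and 8468 dentate granule nuclei held 3 UMIs. These inhibitory classes therefore lay above the pooled excitatory neurons in every library, the reverse of Ptgs2. Vip interneurons, with 13 UMIs in all and 0 in aKO, were under the limit for reading.

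Pvalb interneurons were the class in which Ptgs1 varied between libraries: 8.51 CPM in WT, 18.6 in tKO, 9.81 in aKO and 16.6 in nKO. WT and aKO lay together and tKO and nKO lay above both. The log2 ratio to WT was 1.13 in tKO (0.52 to 1.78) and 0.97 in nKO (0.31 to 1.65), on 96, 64 and 29 UMIs in tKO, nKO and WT. The tKO call held in the 5 alternatives that change which nuclei enter a class (doublets kept, at least 1000 genes per nucleus, male nuclei only, clusters in place of the marker gate, and a stricter gate), which are the 5 meant wherever alternatives are counted here, and the nKO call was lost among male nuclei alone. In this class 1 of 3 members tested was called in tKO, 0 in aKO and 1 in nKO, where 5.88%, 5.49% and 6.25% of all genes tested were called. Sst interneurons, which held more Ptgs1 in WT, had lower values in tKO and nKO (15.5 and 13.4 CPM) than in WT, without a call.

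Among the phospholipases, Pla2g4e was the neuronal member. It encodes a calcium-dependent enzyme that is also known to transfer acyl chains to make precursors of N-acylethanolamines, a family that includes the endocannabinoid anandamide. Pla2g4e (chr2:120166412-120245335, minus strand) stood at 116, 104, 92.3 and 105 CPM in Lamp5 interneurons, at 55.4, 70.7, 49.8 and 62.3 CPM in dentate granule neurons and at 59.5 ± 6.72 CPM (SD, n = 4 libraries) in Vip interneurons. Lamp5 interneurons did not overlap the next class, and dentate granule and Vip neurons overlapped each other.

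The hippocampal pyramidal classes were the low end for Pla2g4e. CA1 neurons held 4.17, 6.53, 2.04 and 4.86 CPM and CA2/CA3 neurons 4.67, 5.30, 0.679 and 3.46 CPM, while subicular or cortical excitatory neurons held 48.5, 48.1, 34.4 and 45.2. The lowest dentate granule library was thus far above the highest CA1 or CA2/CA3 library. Among clusters, number 27, led by Egfr, Ndnf and Has2os, held the highest level at 133 CPM. The genes closest to Pla2g4e over 20 classes were Vstm2a (r = 0.847), Ablim3 (0.845) and Klhl33 (0.842).

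**Figure D3:**
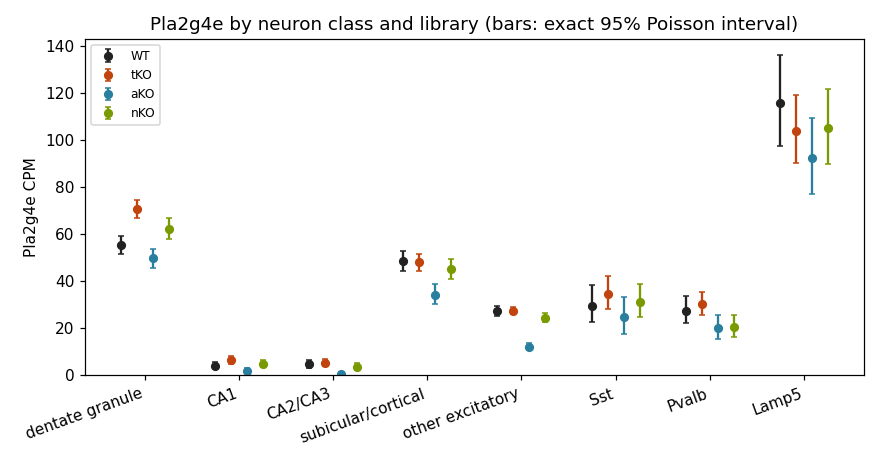
Pla2g4e CPM in 8 neuron classes, 1 point per library with its exact 95% Poisson interval. Lamp5 interneurons lie highest (92.3 to 116) and CA1 and CA2/CA3 neurons lowest, and the aKO library has the lowest point in each of the 8 classes.

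The aKO-labelled library had less Pla2g4e than WT in many neuron classes. Over all excitatory neurons it was 31.0 CPM in WT, 34.8 in tKO, 18.6 in aKO and 29.8 in nKO, and the log2 ratio of aKO was -0.74 (-0.84 to -0.64). The aKO library lay below the other 3, the tKO interval (33.6 to 36.0 CPM) lay above those of WT and nKO by less than the fold limit, and the aKO call held in all 5 alternatives, with -0.82 among male nuclei alone. In CA2/CA3 neurons the aKO value was -2.78 (-4.34 to -1.496) on 6 UMIs against 30, held in all 5 alternatives. In CA1 it was -1.03 (-1.85 to -0.24), lost among male nuclei alone and at -1.91 but with under 100 UMIs with a stricter gate, and in other excitatory neurons -1.16 (-1.36 to -0.97).

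Dentate granule neurons, which held more Pla2g4e UMIs than any other class, did not share that size of difference: the aKO level was 49.8 CPM against 55.4. Clusters with at least 20 nuclei in both libraries and 20 UMIs were also compared. There aKO was lower than WT in 18 of 22, against 13 of 29 for tKO and 13 of 24 for nKO. All clusters of a comparison come from the same pair of libraries, so they are no replicates. No such count over all genes stands beside these, and the part of class make-up was not tested. Inhibitory neurons as a whole held 43.7, 43.4, 35.0 and 38.5 CPM, with no call. The tKO-labelled library was called higher in CA1 (0.65, 0.05 to 1.26), a call lost in 3 of 5 alternatives.

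Pla2g4a, the cytosolic phospholipase A2 alpha that prefers arachidonate-bearing lipids, was glial. Pla2g4a (chr1:149829618-149961290, minus strand) stood at 159 and 155 CPM in the microglia of WT and tKO and at 83.7, 131, 84.2 and 77.1 CPM in oligodendrocytes. Oligodendrocyte precursors held 17.9, 12.9, 24.1 and 0 CPM (the 0 allows up to 23.7 CPM), and none of the neuron classes in which the gene was read exceeded 3.12 CPM in a library. The tKO-labelled library was the high one in oligodendrocytes (log2 ratio 0.65, 0.29 to 1.03). This passed the fold and interval limits, but the class had 42 nuclei in aKO and 64 in nKO, so no share of all genes called stands beside it, and it no longer passed when doublets were kept or at least 1000 genes per nucleus were required. In 23 fibroblast nuclei 11 UMIs were found, under the limit for reading.

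Ptges and Ptges3 both encode prostaglandin E synthases: the membrane-bound, inducible form and the cytosolic form that is also p23, a co-chaperone of Hsp90. Ptges (chr2:30889471-30929863, minus strand) was a low transcript of neurons. It reached 6.79, 6.999, 6.27 and 7.17 CPM in subicular or cortical excitatory neurons, 6.03, 3.11, 7.07 and 4.97 in Sst interneurons and 3.69, 4.41, 2.97 and 5.63 in other excitatory neurons. In the last class nKO was called higher (log2 ratio 0.61, 0.22 to 1.01). No Ptges UMI was found in oligodendrocytes or microglia, where 3 counts, the limit a count of 0 allows, would be 1.45 to 25.3 CPM and 24.5 to 87.1 CPM per library. Its SD over the libraries was 0.391 CPM in subicular or cortical neurons and 1.13 CPM in other excitatory neurons, where it had the most UMIs.

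Ptges3 (chr10:128058954-128077272, plus strand) was the most even member. Its levels were 55.6, 42.4, 38.8 and 46.3 CPM in granule neurons of the dentate gyrus, and CA1 neurons held 50.9, 45.1, 42.1 and 45.7 CPM, and the class means over libraries ran from 44.9 to 53.8 CPM in the well-read neuron classes, each overlapping the next. Means were 77.2 CPM in oligodendrocytes and 82.6 CPM in astrocytes, and the choroid plexus of WT held 106 CPM. Oligodendrocyte precursors held 65.9, 61.3, 0 and 47.3 CPM, where the 0 of aKO rests on 25 nuclei and allows up to 36.2 CPM. WT was the highest library in both neuron classes, and Ptges3 was below WT in 28 of 38 clusters for tKO, 31 of 32 for aKO and 22 of 30 for nKO. Here too the clusters share their libraries and are no replicates, and no such count over all genes stands beside them. Over all excitatory neurons the log2 ratios were -0.20, -0.30 and -0.16, under the 1.5-fold limit. In Sst interneurons tKO (-0.61) and nKO (-0.64) were called lower, as was aKO in Lamp5 interneurons (-0.62), but all 3 calls were lost with clusters in place of the marker gate. A pseudogene, Ptges3-ps, is annotated, and how reads shared with it were counted was not given.

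Ptgds, the lipocalin-type prostaglandin D synthase abundant in cerebrospinal fluid, was by far a gene of non-neuronal nuclei. Ptgds (chr2:25466709-25470046, minus strand) stood at 2556, 2260, 1970 and 1361 CPM in oligodendrocytes. In 23 fibroblast nuclei, too few to compare between libraries, 2514 UMIs made up 41705 CPM. Choroid plexus nuclei of WT held 629 CPM and astrocytes 52.5 CPM in WT, 185 in tKO and 67.2 in nKO. Microglial nuclei held 1614 CPM in WT and 702 in tKO beside oligodendrocyte markers that summed to 3029 and 5121 CPM, and whether those markers account for the Ptgds there was not tested. After thinning, 49.5% of the 1432 oligodendrocytes with at least 1000 UMIs and 0.336% of excitatory neurons held a Ptgds UMI.

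In oligodendrocytes the nKO-labelled library was lower than WT (log2 ratio -0.91, -1.09 to -0.74), past the fold and interval limits in all 5 alternatives, on 64 nuclei and again with no background share. That interval treats the 300 UMIs of nKO and 2444 of WT as independent. The share of oligodendrocytes with a Ptgds UMI was similar. After thinning it was 49.2% in nKO (36.1% to 62.3%) and 51.9% in WT (46.5% to 57.2%). Without thinning it was 65.6% and 64.5%. The aKO library did not pass the fold limit (-0.38). The 12 oligodendrocyte markers summed to 29931, 31740, 28807 and 24948 CPM in the same order, so they too were lowest in nKO, by a smaller factor.

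Ptgds in neurons rested on few nuclei. In dentate granule neurons it was 3.67 CPM in WT, 5.88 in tKO, 7.77 in aKO and 9.29 in nKO, with log2 ratios of 0.68, 1.08 and 1.34, all called higher. But 38 of the 109 UMIs in nKO and 27 of the 102 in tKO came from 1 nucleus each. Without the nucleus that held most UMIs in each library, tKO was 0.35 (-0.19 to 0.90) and no longer called, while aKO (1.00) and nKO (0.84) were. The aKO and nKO calls were lost among male nuclei alone. In the same dentate granule nuclei Ttr, a gene of the choroid plexus, was at 6.99, 10.9, 14.1 and 0.256 CPM in WT, tKO, aKO and nKO. The oligodendrocyte markers summed to 406, 374, 396 and 383 CPM. Whether stray RNA of other cells has a part in the Ptgds values was not tested. In CA1 neurons 42 of 59 UMIs in nKO came from 1 nucleus, and leaving it out took the level from 6.11 to 1.76 CPM and the log2 ratio from 0.83 to -0.62 (-1.60 to 0.31). Counting intervals treat UMIs as independent and are too narrow where a nucleus holds many. The aKO value in CA1, -2.63, was -2.54 without the top nuclei, on 6 UMIs against 33.

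The receptors Ptger3 and Ptger4 encode EP3 and EP4, G protein-coupled receptors of prostaglandin E2 known to lower and to raise cAMP, respectively. Ptger3 (chr3:157566892-157645888, plus strand) was read above 10 CPM in few neuron classes. Sst interneurons held 29.7, 23.5, 23.6 and 20.3 CPM, subicular or cortical excitatory neurons 18.4, 21.8, 17.7 and 16.2, and dentate granule neurons at most 0.647. The first 2 classes overlapped, and both were above CA1 neurons in every library.

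Among clusters, Ptger3 was highest in small ones. Cluster 26, which matched no marker list as a cluster, although 85.1% of its nuclei were gated as other excitatory neurons, held 692 nuclei led by Gm6602, 9330185C12Rik and Cfap52, with 125, 120, 93.9 and 99.2 CPM. Cluster 25, led by Fn1, Nts and Skint1, held 45.3, 55.0, 27.6 and 43.0. Both lay above cluster 4, led by Ccn2, with 27.1, 25.8, 24.1 and 20.9 CPM. Cluster 38, also without a name and with 134 nuclei, held 64.8 CPM over all libraries. Clusters were built from variable genes with the members left out. They were ranked here by Ptger3 itself, so their order is a description.

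**Figure D4:**
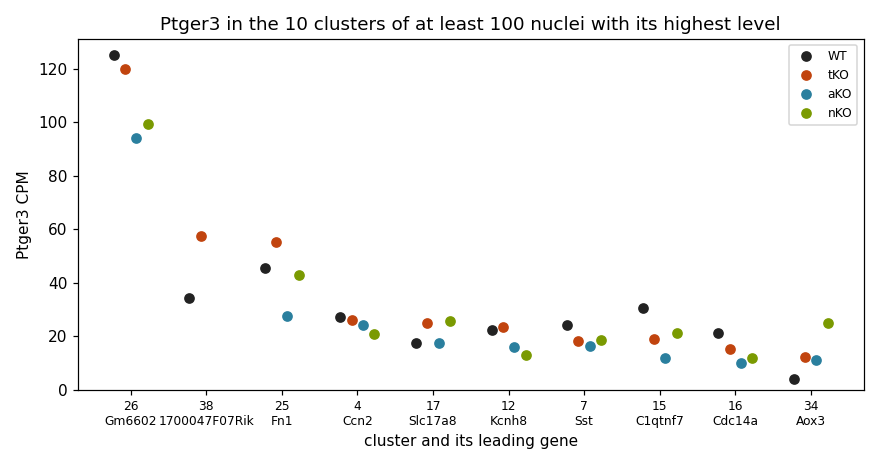
Ptger3 CPM in the 10 clusters of at least 100 nuclei with its highest level, 1 point per library, each cluster with its number and leading gene. Cluster 26 lies at 93.9 to 125 CPM in the 4 libraries, and cluster 25 at 27.6 to 55.0.

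In CA2/CA3 neurons Ptger3 was 3.74 CPM in WT, 9.04 in tKO, 2.04 in aKO and 3.77 in nKO. Only tKO was called, with a log2 ratio of 1.27 (0.59 to 2.00) on 75 against 24 UMIs, held in all 5 alternatives and at 1.51 without the top nuclei. CA1 neurons had the same order for tKO and WT (3.16 and 1.25 CPM) but 60 UMIs in all, too few for a call. The tKO library differed from the others in sex, doublets and class make-up as given above. It also differed in depth, with a median of 4979 UMIs per kept nucleus against 7268 to 8787. Among male nuclei the CA2/CA3 call held. Over all excitatory neurons aKO was lower (-0.66, -0.86 to -0.47), a call lost among male nuclei alone and with clusters in place of the gate.

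Ptger4 (chr15:5206661-5244187, minus strand) was read at a near-uniform low level. Dentate granule neurons held 9.28, 6.23, 7.60 and 7.67 CPM, CA1 neurons 7.40, 5.37, 6.22 and 6.42, and Sst interneurons 9.55, 6.21, 8.83 and 6.88. WT was highest in each of these 3 classes. Over all inhibitory neurons tKO was called lower (-0.68, -1.12 to -0.23), held in all 5 alternatives. In CA2/CA3 neurons nKO was called lower (-0.68), and 3 of 5 alternatives lost that call. Ptger4 overlaps Ttc33 on the opposite strand over 11676 bases, and Ttc33 stood at 12.6, 12.1, 10.2 and 10.1 CPM in excitatory neurons, so reads of the pair could not be told apart without strand.

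Alox5 (chr6:116410077-116461178, minus strand), which encodes 5-lipoxygenase, was too low to read in 22 of 23 classes. It held 155 UMIs in 51304 nuclei, 11 of them in microglia. It passed the limit for reading only in other excitatory neurons, a class of 14741 nuclei, and no comparison is given. After thinning, 5 of 14605 nuclei of that class held an Alox5 UMI (0.0342%). In microglia, under the limit for reading, 8 of 76 thinned nuclei did (10.5%, 4.66% to 19.7%), with 44 shallower nuclei left out.

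Counted together, few members were called in any comparison. In dentate granule neurons 1 of 5 members tested was called in each of tKO, aKO and nKO, where 6.69%, 6.04% and 5.28% of all genes tested were called, and that member was Ptgds each time. In CA1 neurons 2 of 5 were called in each comparison, against backgrounds of 6.32%, 3.94% and 5.05%. These were Ptgs2 and Pla2g4e in tKO, Pla2g4e and Ptgds in aKO, and Ptgs2 and Ptgds in nKO. Without the top nuclei the tKO and nKO counts were 1 each, and among male nuclei alone all 3 counts were 0. With a stricter gate they were also 0, where Ptgs2 in tKO and nKO and Pla2g4e and Ptgds in aKO still passed the fold and interval but had under 100 UMIs.

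CA2/CA3 neurons had 1 of 5 called in each comparison (backgrounds 6.39%, 5.17% and 5.85%): Ptger3 higher in tKO, Pla2g4e lower in aKO and Ptger4 lower in nKO. Over all excitatory neurons 0 of 9 were called in tKO, 2 in aKO and 0 in nKO (7.83%, 6.21% and 5.26%), and over all inhibitory neurons 2 of 7, 0 and 1 (7.78%, 5.52% and 6.28%). In other excitatory neurons 0, 3 and 2 of 7 were called (7.54%, 8.02% and 5.16%), in subicular or cortical neurons 1, 0 and 1 of 6 (5.65%, 5.08% and 4.95%), in Sst interneurons 1, 0 and 1 of 4 (6.89%, 7.89% and 7.22%), in the remaining inhibitory neurons 1, 0 and 0 of 6 (7.63%, 7.07% and 7.67%), and in Lamp5 interneurons 0, 1 and 0 of 2 (5.52%, 5.74% and 7.23%). The median log2 ratio of the 5 CA1 members was -0.18, -0.27 and -0.15 in tKO, aKO and nKO, beside -0.03, -0.02 and -0.01 over all genes tested.

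**Figure D5:**
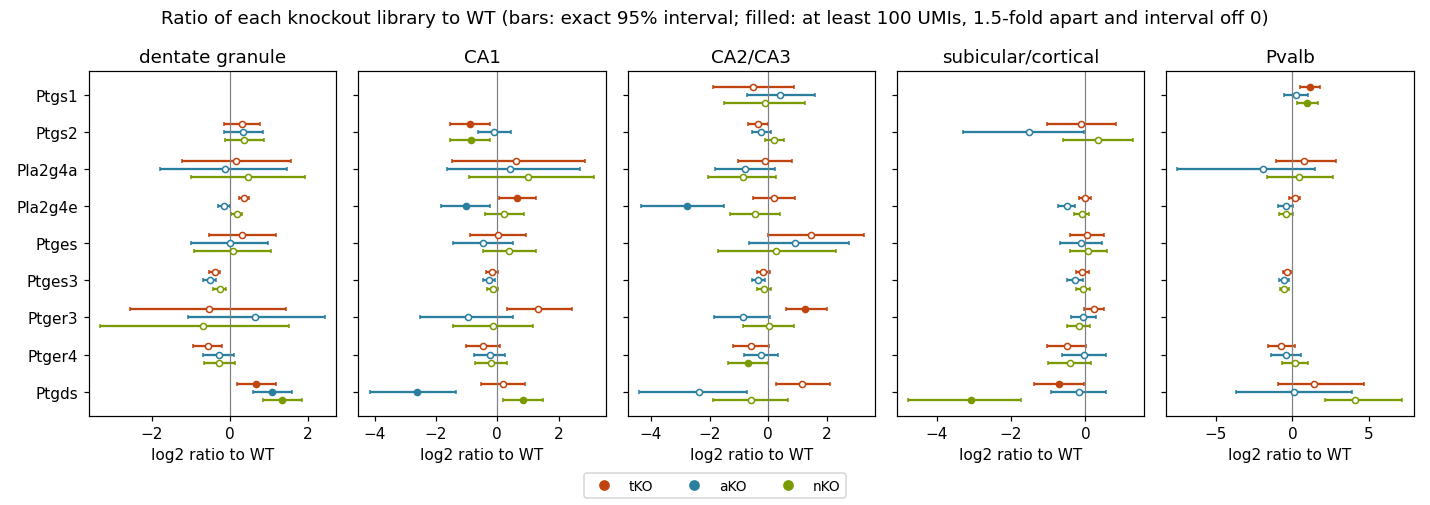
Log2 ratio of each knockout-labelled library to WT for the members with at least 20 UMIs in 5 neuron classes, with exact 95% intervals; filled points had at least 100 UMIs, were at least 1.5-fold apart and had an interval that leaves out 0. Most points are open, and the filled ones include Ptgs2 in CA1 (tKO -0.89, nKO -0.87), Pla2g4e in CA2/CA3 (aKO -2.78) and Ptgs1 in Pvalb interneurons (tKO 1.13, nKO 0.97).

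The wider pathway was read from 58 other listed genes of arachidonate release and reacylation, prostanoid synthesis, breakdown and receptors, lipoxygenases and epoxygenase products, of which 46 were in the files and 44 could be read in some class. In dentate granule neurons 21 were tested: 0 were called higher and 1 lower in tKO, and 1 higher and 1 lower in each of aKO and nKO, where 6.69%, 6.04% and 5.28% of all genes tested were called, so these counts are near the background. Hpgds, the haematopoietic prostaglandin D synthase, was the lower gene each time, at 16.8 CPM in WT against 8.88, 10.1 and 11.0 (log2 ratios -0.92, -0.73 and -0.61). All 3 comparisons use the WT value, which lay above the others. Hpgds is best known from microglia, where it had its highest level of 440 CPM, and the microglial markers summed in dentate granule nuclei were 57.1, 49.8, 59.3 and 50.5 CPM; their part in the result was not tested. Ptgfrn, an inhibitor of the prostaglandin F receptor, was the higher gene (0.79 in aKO and 0.82 in nKO).

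In CA1 neurons 21 pathway genes were tested and 2, 0 and 3 were called in tKO, aKO and nKO, beside 6.32%, 3.94% and 5.05% of all genes. In tKO 0 were higher and 2 lower, Pla2g3 (-0.70) and Hpgds (-0.76). In nKO Ptgis, the prostacyclin synthase (0.80), and Ephx1, an epoxide hydrolase (0.69), were higher and the phospholipase Pla2g6 lower (-1.19), and in aKO none of the 21 was called. In each pathway list, the gene with the highest level in any class had it in a non-neuronal class. Pnpla8 (release, 150 CPM on 72 UMIs), Mboat2 (reacylation, 248 CPM) and Cyp2j9 (epoxygenase, 159 CPM) were highest in astrocytes. Hpgds (440 CPM) and Hpgd, which inactivates prostaglandins (173 CPM), were highest in microglia. Ptger1 was highest in oligodendrocytes (33.3 CPM on 56 UMIs, 10.5 to 59.0 between libraries) and Ltc4s in the choroid plexus (110 CPM, 1 library). Other genes of these lists were highest in neuron classes. Among them were Pla2g3 in Pvalb interneurons (69.1 CPM on 1060 UMIs), Aloxe3 in subicular or cortical neurons (9.74 CPM) and Tbxa2r in CA2/CA3 neurons (1.38 CPM).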

How the data were processed

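UMI counts per gene and barcode were deposited by the authors as whole-number counts without normalization, for 4 single-nucleus libraries built with a 10x Genomics kit for RNA and chromatin, per the labels' protocols. The deposited barcodes held 400 to 5998 genes each, with like limits in all 4 libraries, so barcodes outside that range were absent. What this does to depth, class make-up and shares was not tested. Cell Ranger ARC 2.0.0 and the build mm10 are named in the submitters' processing notes. The annotation and strand setting of the counting were not given in the sources used here. Gene positions are from GENCODE M21 (GRCm38) by symbol, and promoter windows from RefSeq (GRCm38.p6).

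Nuclei with at least 500 genes and at most 5% mitochondrial UMIs were kept, and doublets called by Scrublet in scanpy 1.11.5 (expected rate 0.8% per 1000 barcodes) were removed. Each nucleus was classed by marker scores: at least 3 markers, a score 5-fold (non-neuronal) or 2-fold (neuron subclasses) above the average nucleus, and a 1.5-fold lead over the next list. Leiden clusters (leidenalg 0.10.2, resolution 1, 30 principal components, 15 neighbours, 2000 variable genes) served as an alternative. Nuclei with no class or with markers of several numbered 2962 and 826.

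Counts were summed per library and class and scaled to CPM. Intervals were exact: Poisson for levels, conditional binomial for ratios, Clopper-Pearson for shares, all at 95%. With 1 library per genotype no test was made. Genes were compared where the 4 libraries together held at least 100 UMIs, and shares of genes called were computed in classes with at least 100 nuclei in each library; oligodendrocytes had fewer. Levels were compared with a pseudocount of 1 for the 1.5-fold limit. Means over libraries used those with at least 20 nuclei. A limit on a count of 0 is 3 counts. The code was tested on simulated data. The members, the gene and marker lists and the rules for naming genes (all members where read; pathway genes where called in dentate granule or CA1 neurons or highest of their list) were chosen with earlier results of these data known.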

Additional observations from a re-analysis of the deposited data

Results flagged for a closer look

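Ptgds differed from WT in opposite directions in different neuron classes of the same library. In the tKO-labelled library its log2 ratio was 0.68 in dentate granule neurons and -0.71 in subicular or cortical neurons. In the aKO-labelled library it was 1.08 in dentate granule and -2.63 in CA1 neurons. In the nKO-labelled library it was 1.34 in dentate granule and 0.83 in CA1 neurons, but -3.08 in subicular or cortical neurons. The differences between classes were not tested, since each genotype has 1 library. The tKO contrast between classes did not hold under every alternative: with clusters in place of the gate the subicular or cortical value was 0.13, and without the nucleus with most Ptgds UMIs the dentate granule value was 0.35 and no longer called. Leaving out the nucleus with most Ptgds UMIs in each library took the nKO value in CA1 to -0.62.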

How the results depend on the processing

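No paired analysis was possible because each genotype has 1 library. Of 1694 recomputed member ratios 1609 kept their direction and size within counting error, 76 moved and 9 reversed, all 9 for Ptgds. Its nKO value in CA1 became -0.21 with male nuclei only, -0.80 with a stricter gate and, in an alternative chosen after seeing the data, -0.62 without the nucleus richest in Ptgds. With clusters in place of the gate its tKO value became 0.13 in subicular or cortical neurons and 0.27 in inhibitory neurons, where keeping doublets gave 0.093. A stricter gate gave -1.77 in Pvalb and -0.17 in all inhibitory neurons of nKO, and male nuclei only gave -0.58 in Lamp5 interneurons of aKO. The count of members called in dentate granule neurons of tKO (1) became 0 at a fold of 2 and without the richest nucleus, and 2 with doublets kept, with male nuclei only or with clusters, and with male nuclei only the aKO and nKO counts became 0. In CA1 the counts of 2 fell to 0 in all 3 comparisons with male nuclei only and with a stricter gate (there partly because members dropped under 100 UMIs), to 0 in tKO and nKO at a fold of 2, and to 1 in tKO and nKO with clusters or without the richest nucleus. Immediate early gene folds without thinning were 1.58 in WT, 1.496 in tKO and 1.25 in nKO. Of the 27 counts of all genes called, 411 to 1331 per comparison, every one moved at a fold of 2, to 74 to 329, and 4 (411 to 608) moved to 685 to 994 with at least 20 UMIs. Members with under 100 UMIs in a class were too shallow for a call.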
